A study of Mus musculus with 4 samples.

Results

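The genes described here encode the subunits of heterotrimeric G proteins and the regulators of G protein signalling (RGS proteins) in mouse bone marrow-derived macrophages. They are the protein-coding genes of the count table whose symbols are those of Gα subunits (Gna genes), Gβ subunits (Gnb1 to Gnb5), Gγ subunits (Gng followed by a number) or RGS proteins (Rgs followed by a number). This symbol rule gave 52 of 54532 genes, made up of 16 Gα, 5 Gβ, 10 Gγ and 21 RGS genes. The rule reads symbols and uses no measured value, although the set was proposed with earlier results of these data known. Marrow cells of an unnamed mouse strain were differentiated for 7 days in medium conditioned by L929 cells, a source of macrophage colony-stimulating factor. They were transfected over 24 h, either with mimics of miR-204-3p or with negative control mimics. A mimic is a synthetic RNA that is loaded into the microRNA machinery like a natural duplex. Each group had 2 libraries, both groups were transfected, and RNA of cells that received no mimic was not analysed here. The design asks which messenger RNAs differ after the miR-204-3p mimic, and the amount of miR-204-3p reached in the cells is not known from these data.

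A heterotrimeric G protein couples a cell surface receptor to enzymes and channels inside the cell. The activated receptor makes Gα exchange GDP for GTP, Gα-GTP and the Gβγ dimer then act on separate effectors, and the signal ends when Gα hydrolyses GTP. RGS proteins speed up that hydrolysis and so shorten the signal. In macrophages and other leukocytes, Gi proteins carry chemokine and complement receptor signals, Gs raises cyclic AMP, and Gq activates phospholipase C beta.

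The transfected microRNA is shown first, because its seed decides which letters in a 3′ UTR count as a site. The mature mouse sequence, from RefSeq on GRCm38.p6 (chr19:22750649-22750669, plus strand), has its seed, bases 2 to 8, in capitals.
mmu-miR-204-3p: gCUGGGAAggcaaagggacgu
The DNA complement of that seed is TTCCCAG, and the longer form of the site, TTCCCAGA, adds an A. In the longest annotated 3′ UTR of each gene (GENCODE vM21 annotation of GRCm38, the same assembly as mm10), 9 of the 52 genes held the shorter form, among them 3 of the 30 that were tested (10.0%), against 24.2% of 11279 tested protein-coding genes. The longer form was found in 1 of the 30 (3.33%), against 6.88% of the tested protein-coding genes. Median 3′ UTR lengths were 1627.5 bases for the tested members and 1317 bases for all these genes. The tested members with a site were Gna12, Gna15 and Gng12. Their sites are printed with the bases around them, the matched letters in capitals, read 5′ to 3′ on the transcript's strand.
Gna15, chr10:81502548-81502554, minus strand: gaccttgtgacTTCCCAGgggccctgttc
Gng12, first site, chr6:67018623-67018629, plus strand: acattccctccTTCCCAGttttaactggt
Gng12, second site, chr6:67020885-67020892, plus strand: gagcctccctaTTCCCAGAtgccctggtgg
Gna12, chr5:140758883-140758889, minus strand: gacacaacctgTTCCCAGccgctgctggg
A match of letters is a description and does not show that the site was used. Gna15 and Gng12 were lower with the miR-204-3p mimic and Gna12 did not pass the test, as given with their values below. Besides Gna15, the members that fell at least 2-fold were Gnas, Gnb3, Gng2, Gng7, Rgs2, Rgs10 and Rgs11, and these had neither form in that 3′ UTR.

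Levels are given as CPM, a gene's counts per 1000000 counts of its library, scaled by the trimmed mean of M-values (TMM) method. A level carries the SD of 2 libraries, and a log2 fold change, taken as miR-204-3p mimic relative to control mimic, carries its standard error. Tests are edgeR's quasi-likelihood test with Benjamini-Hochberg adjustment over 13186 tested genes, called at an adjusted p under 0.05. Of the 52 genes, 30 had enough counts to be tested, 10 had some counts but too few, and 12 had no count in any library. Of the 30, 18 passed the test (60.0%), where 60.8% of all tested genes did. There were 6 higher and 12 lower, where 31.1% of all tested genes were higher and 29.7% lower. At least 2-fold changes were found for 12 members, where 31.6% of all tested genes had one. They were 4 higher and 8 lower members, where the shares of all tested genes were 15.5% and 16.1%. The median log2 fold change was -0.18 over the 30 members and 0.04 over all tested genes, and the median size of change was 0.66 and 0.65. The share of members that passed was thus near that of all genes. A gene that reached the test only through the group where it was high, such as Gnb3 or Gng4, had to differ between groups, so these counts describe the members that were tested. With scaling by library size alone, the median of all genes moved from 0.04 to 0.40, the share of higher genes among all called ones from 51.1% to 71.0%, and the members to 10 higher and 9 lower, so every direction here is relative to the TMM scaling.

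**Figure D1:**
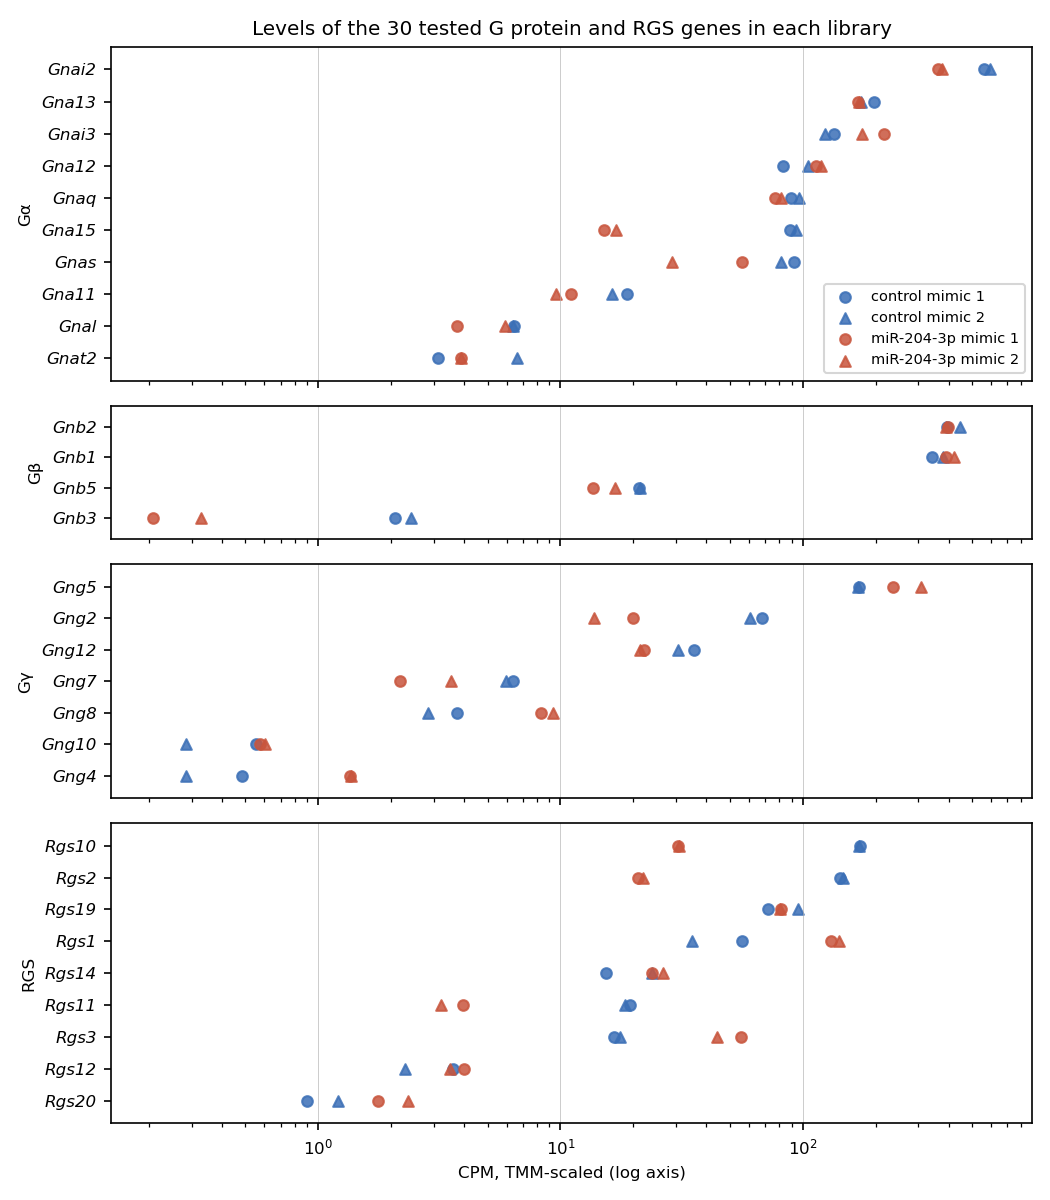
CPM of the 30 tested genes in each library, on a log axis, with 1 panel per class. Blue points are the 2 control mimic libraries and red points the 2 miR-204-3p mimic libraries. Rgs2, Rgs10, Rgs11, Gna15, Gng2 and Gnb3 have their red points well to the left of the blue ones, and Rgs1, Rgs3, Gng8 and Gng4 to the right.

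Libraries held between 15899235 and 16837826 counts, and a count of 0 allowed up to 3 counts, 0.156 to 0.213 CPM, which covers counting error only. Log2 CPM values correlated across genes at r = 0.987 and 0.989 within groups and at 0.871 to 0.885 between them. Of 10 macrophage markers 9 were tested, 8 were lower and 1, Fcgr1, was higher. Their summed level was 17190 and 19050 CPM in the control libraries against 3442 and 3459 CPM in the mimic libraries. Most of that sum was Lyz2, at 13799 and 15307 CPM in the control and 2146 and 2113 CPM in the mimic libraries. Summed B cell markers went from 251 and 227 to 3.38 and 3.82 CPM, with Ms4a1 at 0 counts in every library. Neutrophil markers went from 174 and 241 to 15.8 and 11.6 CPM, nearly all of it Prtn3 and Csf3r, with 3 of 4 tested lower and Ly6g at 0, while the low genes Camp, Mpo and S100a8 had more counts with the miR-204-3p mimic. Dendritic cell markers went from 164.6 and 138.5 to 34.8 and 33.7 CPM, nearly all of it Tcf4 and Itgax, with 3 of 5 tested lower, Xcr1 and Zbtb46 not passing and Cd209a at 0. T and NK cell markers went from 5.55 and 4.76 to 28.5 and 27.4 CPM, nearly all of it Lck, with Cd3e, Cd3g, Cd8a, Klrb1c and Ncr1 at 0. Platelet markers summed to 2.60 to 4.26 CPM over the 4 libraries, with Itga2b called higher, Gp9 called lower (edgeR adjusted p = 0.029 and 0.015) and Pf4 and Ppbp at 0, erythroid markers to 1.07 to 1.46 CPM and stromal markers to 0.208 to 0.655 CPM. Mast cell markers went from 0.139 and 0.569 to 2.19 and 2.24 CPM, nearly all of the latter Hdc, with 0 and 7 counts against 39 and 37, while Fcer1a, Mcpt8 and Ms4a2 were at 0. The macrophage, B cell, neutrophil, dendritic cell, T and NK cell, mast cell and stromal sums did not overlap between the groups. The stromal sums, 0.208 and 0.213 against 0.260 and 0.655 CPM, were very low. Among all tested genes, 80.7% had groups that did not overlap. The part of these cell types in the results was not tested. In bulk RNA, fewer cells of a type and less RNA per cell cannot be told apart.

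Among Gα genes, the transcript of the Gq-class subunit Gα15 fell most. Gna15 (ENSMUSG00000034792, chromosome 10, 81502306 to 81524225, minus strand) encodes a blood cell-restricted Gα that couples many receptors to phospholipase C beta. It stood at 88.4 and 94.0 CPM in the control libraries, and at 15.2 and 17.0 CPM in the mimic libraries. The groups were far apart and each pair of libraries was close. Gna15 fell 5.67-fold (log2 fold change -2.50 ± 0.15, edgeR adjusted p = 4.3e-09). Gna11, its ubiquitous relative in the Gq class, was lower too, at 17.5 ± 1.78 against 10.3 ± 1.01 CPM (-0.76 ± 0.20, edgeR adjusted p = 0.0039), a call lost with library size alone (-0.40, adjusted p = 0.091). Gnaq, the other widely expressed Gq-class gene, did not pass, at 93.2 ± 5.25 and 79.3 ± 3.39 CPM (edgeR adjusted p = 0.11).

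The Gi genes went in opposite directions. Gnai2 (ENSMUSG00000032562, chromosome 9, 107614125 to 107635367, minus strand) encodes Gαi2, which inhibits adenylyl cyclase and is the main Gi subunit of leukocyte chemotaxis. It stood at 563 and 594 CPM in the control libraries, and at 362 and 375 CPM in the mimic libraries. It was 1.57-fold lower (log2 fold change -0.65 ± 0.12, edgeR adjusted p = 3.4e-04), and -0.29 with library size alone (adjusted p = 0.048). Gnai3, which encodes the closely related Gαi3, stood at 134 and 124 CPM in the control libraries, and at 218 and 175 CPM in the mimic libraries, 1.52-fold higher (0.60 ± 0.14, edgeR adjusted p = 0.0015). All mimic values of Gnai3 lay above, and all those of Gnai2 below, the control values. Both kept their call and direction in the 11 alternatives that tested for any change, among them library size alone, where Gnai3 rose by 0.97 on the log2 scale.

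Gnas (ENSMUSG00000027523, chromosome 2, 174284320 to 174346744, plus strand) encodes Gαs, which stimulates adenylyl cyclase. Its level was 91.7 and 81.3 CPM in the control libraries, against 56.2 and 28.8 CPM in the mimic libraries. The mimic libraries lay below the controls but differed from each other. Gnas was 2.04-fold lower (log2 fold change -1.03 ± 0.22, edgeR adjusted p = 0.0012), -1.59 without mimic replicate 1, -0.65 without mimic replicate 2 and -0.66 with library size alone. Of its exonic bases, 22.0% are overlapped by genes of the opposite strand, which had no counts of their own. Gna12 and Gna13, which form a Gα class of their own, did not pass. Gna12 stood at 94.1 ± 15.4 and 117 ± 3.74 CPM (edgeR adjusted p = 0.063), and Gna13 at 185 ± 16.9 and 170.3 ± 0.801 CPM (edgeR adjusted p = 0.42). Gna12 passed with library size alone (log2 fold change 0.67), when genes needed an average log2 CPM of 1 or more (0.32), with a replicate block (0.32) and without control replicate 2 (0.48), and 13.3% of its exonic bases overlap Amz1 on the opposite strand, so reads of the 2 genes could be mixed. Gnal, the Gs-class subunit of olfactory neurons, and Gnat2, the transducin of cone photoreceptors, were at 3.12 to 6.61 CPM in all libraries. They did not pass (edgeR adjusted p = 0.21 and 0.43). Gnal was called lower without mimic replicate 2 (log2 fold change -0.80), and Gnat2 without control replicate 1 (-0.78). Mppe1 overlaps 7.63% of the exonic bases of Gnal on the opposite strand. It had 431 and 493 counts against 397 and 398, so reads could be mixed here too.

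Levels between genes are compared as CPM per kilobase of annotated exon. On this scale Gnai2 was the highest Gα gene in every library, at 153 ± 5.85 in the control and 97.6 ± 2.46 in the mimic group. In the control group Gna15 (42.7 ± 1.84) and Gnai3 (39.6 ± 2.19) followed, then Gna13 (28.9 ± 2.64) and Gna12 (27.5 ± 4.51), whose order lay within their spread. In the mimic group Gnai3 was next after Gnai2, at 60.2 ± 9.15, while Gna15 was at 7.53 ± 0.589, below Gna12 (34.1 ± 1.09), Gna13 (26.5 ± 0.125) and Gnaq (12.8 ± 0.548). Shares of the summed Gα level within a library do not depend on the scaling between libraries. Gnai2 held 47.1% and 47.9% of it in the control libraries, against 38.1% and 40.8% in the mimic libraries. The share of Gnai3 went from 13.02% and 11.60% to 26.5% and 22.1%, and that of Gna15 from 13.1% and 13.4% to 2.83% and 3.27%. The share of Gnas is a low estimate, since its annotated exons of 11186 bases include those of several alternative first exons.

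**Figure D2:**
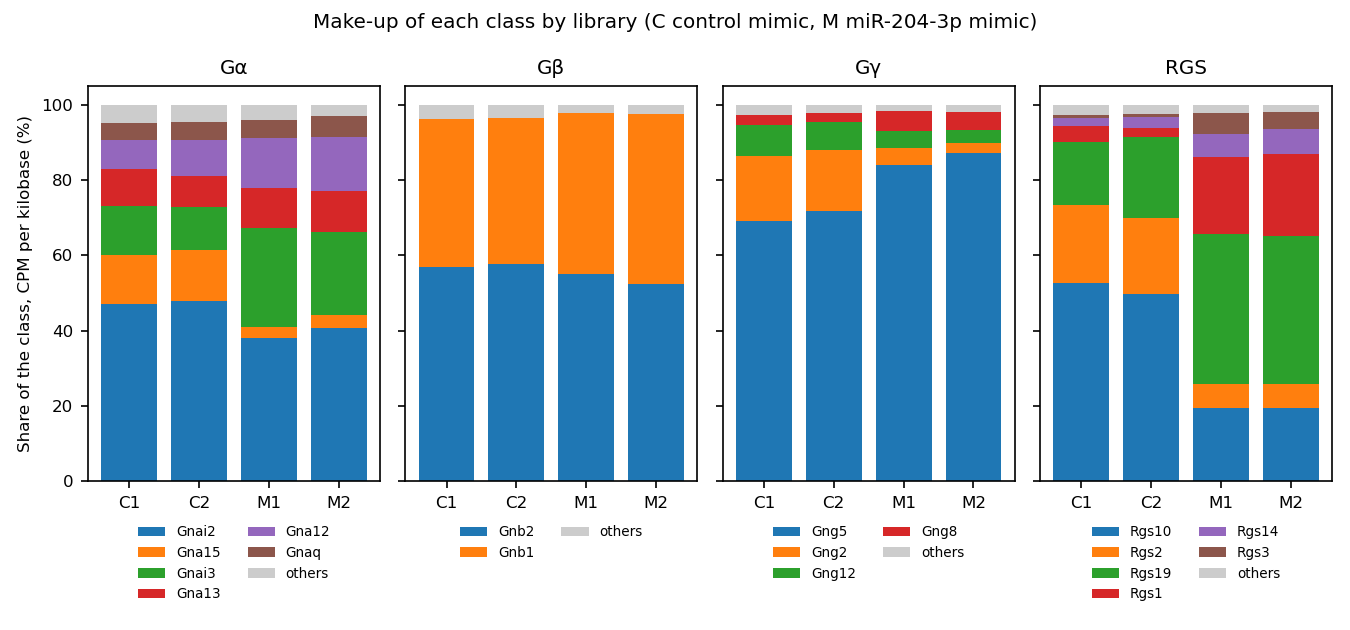
Share of each gene in the summed CPM per kilobase of its class, in percent, for control mimic libraries C1 and C2 and miR-204-3p mimic libraries M1 and M2, with genes under 4% in both groups pooled as others. Gnai3 takes a larger and Gna15 a smaller part of Gα in M1 and M2, Gng5 goes from 70.5% to 85.7% of Gγ, and Rgs10 from 51.2% to 19.5% of the RGS class, while Gβ changes little. Classes hold genes of the symbol rule only, so Gγ leaves out Gngt2.

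The main Gβ genes did not pass the test. Gnb2 and Gnb1 encode Gβ subunits found in nearly all cells. Gnb2 stood at 394 and 446 CPM in the control libraries, and at 398 and 391 CPM in the mimic libraries, and the groups overlapped (log2 fold change -0.09 ± 0.12, edgeR adjusted p = 0.55). Gnb1 stood at 341 and 378 against 390.0 and 422 CPM (0.18 ± 0.12, edgeR adjusted p = 0.24), and was called higher with library size alone (0.54). Together they held nearly all of the Gβ level per length, Gnb2 57.3% ± 0.444 in the control and 53.7% ± 1.85 in the mimic group, and Gnb1 39.1% ± 0.224 and 44.0% ± 1.54.

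Of the minor Gβ genes, Gnb3 and Gnb5 could be tested and were lower, while Gnb4 had more counts with the miR-204-3p mimic but too few for the test. Gnb3 reached the test only through the control group, so it had to differ between groups. Gnb3 (ENSMUSG00000023439, chromosome 6, 124834240 to 124840275, minus strand) encodes the Gβ of cone photoreceptors, and had 30 and 34 control counts against 4 and 6 with the miR-204-3p mimic. These correspond to 2.08 and 2.42 CPM and to 0.208 and 0.327 CPM, an 8.22-fold lower level (log2 fold change -3.04 ± 0.52, edgeR adjusted p = 1.7e-04). Gnb5 encodes the atypical Gβ5, which pairs with RGS proteins of the R7 family in place of a Gγ. It was at 21.2 ± 0.122 and 15.2 ± 2.28 CPM (-0.48 ± 0.18, edgeR adjusted p = 0.034), and lost its call with DESeq2 (adjusted p = 0.053), with library size alone (-0.12, adjusted p = 0.59) and without control replicate 1, control replicate 2 or mimic replicate 1 (adjusted p = 0.065 to 0.19). Gnb4, which encodes another Gβ that pairs with common Gγ subunits, was hardly detected. It had 0 and 2 counts against 11 and 7 with the miR-204-3p mimic, 0.572 CPM at most, which was too few for the test. The ratio of its counts, mimic over control, was 6.83 with a 95% counting interval of 1.64 to 60.7, which covers counting error only. Without the low-count filter its adjusted p was 0.083. No seed site was found in its 3′ UTR of 4788 bases.

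Among Gγ genes, which encode the small membrane-anchored partners of Gβ, 3 rose, 3 fell and Gng10 did not pass (0.420 ± 0.191 and 0.586 ± 0.0197 CPM). The share called was 85.7% of only 7 tested genes, where 60.8% of all tested genes were called. Of the exonic bases of Gng10, 72.0% are overlapped on the same strand by Gm20503, which had no counts, and 71.5% of its 50-base stretches also occur there, so its counts may understate its level. Gng5 (ENSMUSG00000068523, chromosome 3, 146499807 to 146505572, plus strand) was the highest Gγ gene per length in every library. It stood at 171 and 169.9 CPM in the control libraries, and at 236 and 308 CPM in the mimic libraries, so that the groups did not overlap. Gng5 was 1.59-fold higher (log2 fold change 0.67 ± 0.14, edgeR adjusted p = 8.8e-04), 1.03 with library size alone and 0.45 without mimic replicate 2. Its share of the Gγ level, summed over the genes of the symbol rule and so without Gngt2, went from 69.1% and 71.8% to 84.0% and 87.3%.

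Gng2 (ENSMUSG00000043004, chromosome 14, 19872559 to 19977627, minus strand), whose product is a Gγ commonly paired with Gβ1 in signalling studies, went the other way. It stood at 67.8 and 60.6 CPM in the control libraries, and at 19.9 and 13.8 CPM in the mimic libraries. Gng2 fell 3.81-fold (log2 fold change -1.93 ± 0.18, edgeR adjusted p = 4.7e-07), and its share of Gγ from 16.7% ± 0.736 to 3.46% ± 1.41. The gene Gm48283, which overlaps 20.4% of its exonic bases on the opposite strand, had no counts. Gng12, which carries the seed sites printed above, stood at 35.6 and 30.6 CPM against 22.1 and 21.3 CPM, 1.53-fold lower (-0.61 ± 0.16, edgeR adjusted p = 0.0042), a call lost with library size alone (-0.25, adjusted p = 0.19). Gng7, known for its role in striatal neurons, stood at 6.38 and 5.97 CPM against 2.19 and 3.55 CPM (-1.11 ± 0.30, edgeR adjusted p = 0.0059), with adjusted p = 0.052 without mimic replicate 1.

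Gng8 and Gng4 rose from low levels. Gng8, a Gγ gene known from olfactory and vomeronasal neurons, stood at 3.74 and 2.84 CPM in the control libraries, and at 8.33 and 9.28 CPM in the mimic libraries. It was 2.67-fold higher (log2 fold change 1.41 ± 0.27, edgeR adjusted p = 3.8e-04). Gng4, which reached the test only through the mimic group, had 7 and 4 counts against 26 and 25 (1.80 ± 0.54, edgeR adjusted p = 0.010). That call was lost with DESeq2 (adjusted p = 0.074), without control replicate 2 (adjusted p = 0.099) and without either mimic replicate (adjusted p = 0.062 and 0.074). Gng3, a neuronal Gγ gene, was too low for the test, with 2 and 1 counts against 5 and 21. Without the low-count filter it was called (adjusted p = 0.024), but most of its counts lay in 1 library, and 24.2% of its exonic bases overlap Bscl2 on the opposite strand, which had 872 to 1043 counts per library.

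Of 9 tested RGS genes, 2 rose and 3 fell, each by at least 2-fold. The share called was 55.6%, where 60.8% of all tested genes were called. Most proteins of the R4 family are small, with little beyond the RGS domain. Its 3 tested genes all passed, too few to set against the share of all genes. Rgs2 (ENSMUSG00000026360, chromosome 1, 143999338 to 144004161, minus strand) encodes an R4 protein that preferentially turns off Gq. It stood at 142 and 146 CPM in the control libraries, and at 20.9 and 21.9 CPM in the mimic libraries. The libraries of a group were nearly equal and the groups far apart. Rgs2 fell 6.73-fold (log2 fold change -2.75 ± 0.13, edgeR adjusted p = 5.6e-10).

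Rgs1 (ENSMUSG00000026358, chromosome 1, 144242296 to 144249242, minus strand), which encodes an R4 protein that dampens chemokine receptor signals in lymphocytes, rose. It stood at 56.2 and 35.0 CPM in the control libraries, and at 130.4 and 141 CPM in the mimic libraries. The control libraries differed by more than the mimic libraries, and the groups did not overlap. Rgs1 was 2.97-fold higher (log2 fold change 1.57 ± 0.18, edgeR adjusted p = 3.5e-06). Rgs3 (ENSMUSG00000059810, chromosome 4, 62559847 to 62704001, plus strand), whose product acts on Gi and Gq, stood at 16.6 and 17.6 CPM against 55.4 and 44.2 CPM, 2.91-fold higher (1.54 ± 0.17, edgeR adjusted p = 2.1e-06). Of the 50-base stretches in Rgs3 transcripts, 11.4% also occur in the pseudogene Gm5763, which had 8, 2, 10 and 29 counts.

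Rgs1 and Rgs2 lie in a cluster of RGS genes on chromosome 1 of mm10, all on the minus strand. The order by coordinate is Rgs2, Rgs13, Rgs1, Rgs21 and Rgs18, with gaps of 134, 64.9, 267 and 185 kb and no other protein-coding gene lying between neighbours in the count table. Rgs13 and Rgs21 had no count in any library. Rgs18, an RGS gene of platelets and other blood cells, had 2 and 0 counts against 7 and 1. The gene at the start of the cluster was thus lower, and its expressed neighbour higher, in the same libraries. Of the other R4 genes on this chromosome, Rgs16 had 0 counts in 3 libraries and 3 in mimic replicate 2, Rgs8 had 1 and 3 counts against 0 and 0, Rgs5 had 0 and 4 against 0 and 1, and Rgs4 had none.

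**Figure D3:**
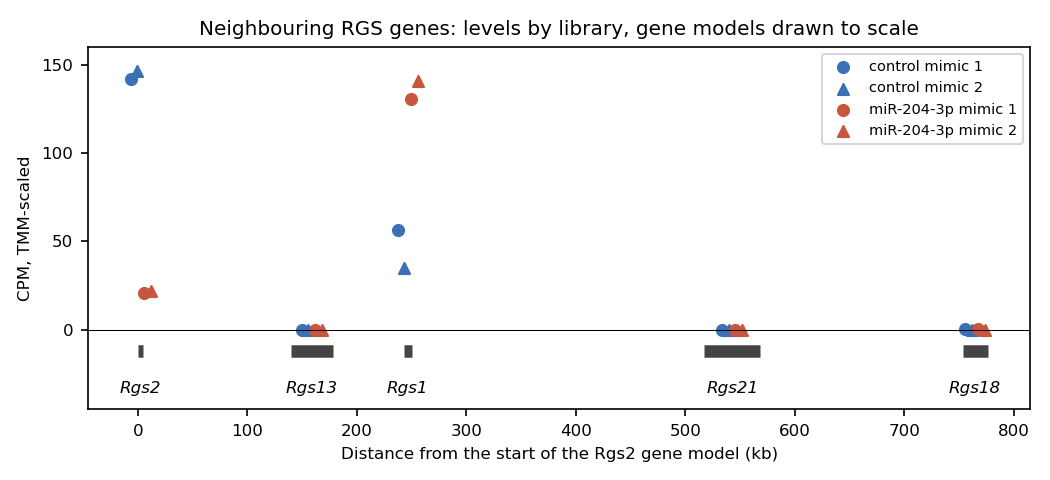
CPM of the RGS genes that neighbour each other on chromosome 1, by distance in kilobases from the start of the Rgs2 gene model, with gene models as grey bars to scale and points of a gene spread sideways so that they can be told apart. Rgs2 stands at 142 and 146 CPM in the control and at 20.9 and 21.9 CPM in the mimic libraries, Rgs1 at 56.2 and 35.0 against 130.4 and 141 CPM, and the others at or near 0.

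In the R12 family, whose larger members also bind inactive Gαi, Rgs10 fell and the rest did not pass. Rgs10 (ENSMUSG00000030844, chromosome 7, 128373621 to 128418758, minus strand) encodes a small RGS protein that acts on Gi, is abundant in macrophages and microglia, and is known in mice as a brake on inflammatory activation. It stood at 172 and 169.9 CPM in the control libraries, and at 30.7 CPM in both mimic libraries. Rgs10 fell 5.57-fold (log2 fold change -2.48 ± 0.13, edgeR adjusted p = 1.2e-09). Rgs14, which combines an RGS domain with a motif that binds Gαi-GDP, stood at 15.5 and 23.8 against 23.8 and 26.5 CPM (edgeR adjusted p = 0.14), and was called higher with library size alone (0.72) and without control replicate 2 (0.69). Rgs12, a large scaffold of the same family, overlapped between groups at 2.27 to 4.01 CPM (edgeR adjusted p = 0.38).

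In the R7 family only Rgs11 was tested, while Rgs6 and Rgs7 had no counts and Rgs9 had 2 counts in 1 control library. Rgs11 (ENSMUSG00000024186, chromosome 17, 26202951 to 26211324, plus strand) encodes a partner of Gβ5 best known from retinal bipolar cells. It stood at 19.4 and 18.4 CPM in the control libraries, and at 3.95 and 3.22 CPM in the mimic libraries, 5.26-fold lower (log2 fold change -2.39 ± 0.22, edgeR adjusted p = 5.2e-07). Arhgdig, which overlaps 3.28% of its exonic bases on the opposite strand, went from 155 and 171 to 30 and 43 counts. In the RZ family, Rgs19, which was found as a binder of Gαi3, stood at 72.0 and 95.7 against 81.4 and 80.9 CPM, and the groups overlapped (-0.05 ± 0.14, edgeR adjusted p = 0.79). Rgs20, which acts on Gαz, stood at 1.05 ± 0.217 and 2.06 ± 0.408 CPM (0.96 ± 0.43, edgeR adjusted p = 0.067). It was called higher with library size alone (1.32, adjusted p = 0.014), while Gnaz itself had no counts. Of the exonic bases of Rgs20, 5.94% are overlapped on the opposite strand by Atp6v1h and the pseudogene Gm17101. Atp6v1h had 1654 and 1421 counts against 3910 and 4270, and Rgs20 13 and 17 against 34 and 43, so reads of these genes could be mixed.

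Per kilobase, Rgs10 was the highest RGS gene in the control group, at 99.9 ± 0.868, followed by Rgs2 (39.7 ± 0.871) and Rgs19 (37.6 ± 7.53), whose order lay within their spread. In the mimic group Rgs19 was highest, at 36.4 ± 0.159, followed by Rgs1 (19.5 ± 1.04) and Rgs10 (17.95 ± 0.0101). The summed RGS level was 191 and 199.9 CPM per kilobase in the control libraries, against 91.8 and 92.7 in the mimic libraries. Rgs10 and Rgs2 held 51.2% ± 2.17 and 20.4% ± 0.241 of it in the control group and 19.5% ± 0.129 and 6.40% ± 0.158 in the mimic group. The shares of Rgs1 and Rgs19 went from 3.38% ± 1.22 and 19.2% ± 3.21 to 21.1% ± 0.978 and 39.5% ± 0.456. Summed Gβ levels overlapped between groups, at 203 and 227 against 213 and 219 CPM per kilobase. Summed Gα levels were 316 and 328 against 252 and 243, and summed Gγ levels 89.8 and 85.5 against 102 and 127. Unlike the shares, all these sums depend on the scaling between libraries. With library size alone the median log2 fold change of the members moved from -0.18 to 0.19. The Gγ sums and shares leave out Gngt2, a Gγ gene outside the symbol rule with a gene model of 1877 bases. Gngt2 stood at 54.9 and 64.0 CPM in the control libraries, and at 13.4 and 10.8 CPM in the mimic libraries. The Gγ sums thus do not describe all Gγ transcripts.

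**Figure D4:**
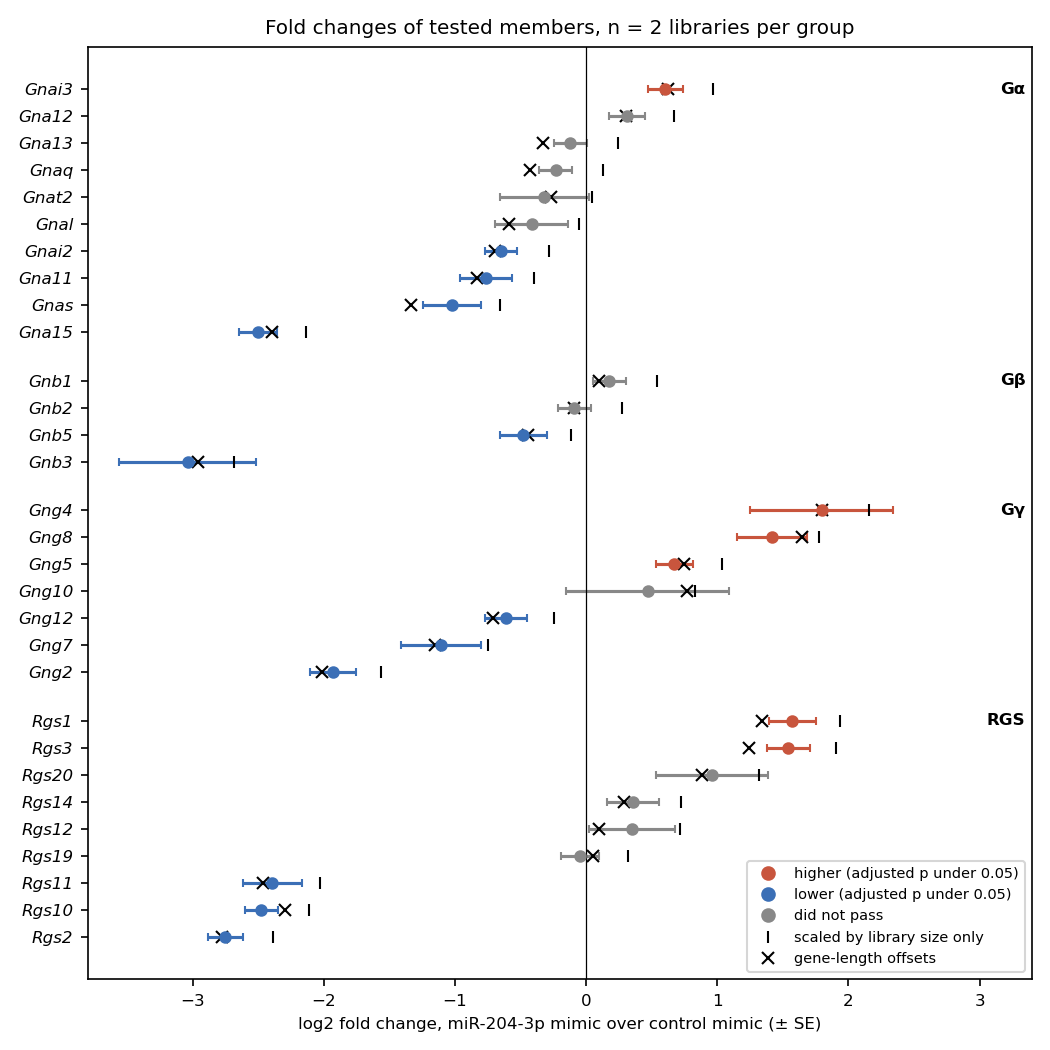
Log2 fold change, miR-204-3p mimic over control mimic, with its standard error, of the 30 tested genes by class. Red and blue points passed the test as higher and lower, grey points did not, vertical ticks mark the value with library size alone and crosses the value with gene-length offsets. Library size alone moves the points to the right, which takes Gna13, Gnaq, Gnat2, Gnb2 and Rgs19 across 0, and leaves Rgs2, Rgs10, Rgs11, Gna15, Gng2 and Gnb3 below -1.

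The 12 genes with no count in any library were Gnai1, Gnat1, Gnaz, Gng11, Gng13, Rgs4, Rgs6, Rgs7, Rgs13, Rgs17, Rgs21 and Rgs22. The remaining low genes were Gna14 with 1 count in all, Gnao1 with 1 count in each group, and Gnat3 with 2 and 16 against 7 and 4 counts. At this depth these genes could not be compared between the groups. Of the 30 tested genes, 26 had groups that did not overlap, where 80.7% of all tested genes did. In the alternatives that tested for any change, 11 at most per gene, 13 of the 18 called genes kept their call and direction, 5 higher (Gnai3, Gng5, Gng8, Rgs1 and Rgs3) and 8 lower (Gna15, Gnai2, Gnas, Gnb3, Gng2, Rgs2, Rgs10 and Rgs11). A test against a 1.5-fold minimum change called 12 of the 30 members, where it called 33.9% of all tested genes.

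The effectors and receptor regulators of these G proteins were taken from lists chosen for what the genes do. Each list count below stands beside 60.8% of all tested genes called, 31.1% higher and 29.7% lower. The lists are short and were not tested as sets. List genes that reached the test only through the group where they were high, such as Adcy5 and Pde3b, had to differ between groups. Phospholipase C beta, the effector of Gq and of Gβγ, was lower in all 3 tested genes of 4 (median log2 fold change -0.77). Plcb2, the blood cell form, fell from 92.3 ± 11.04 to 27.6 ± 4.42 CPM (-1.74 ± 0.15, edgeR adjusted p = 3.0e-07). Plcb3 and Plcb4 were lower by smaller amounts (-0.53 and -0.77), and both lost their call with library size alone (adjusted p = 0.32 and 0.054). The Gβγ-activated PI3-kinase gamma was lower in 2 of 3 genes. Its catalytic subunit gene Pik3cg fell from 119.9 ± 4.03 to 53.0 ± 1.03 CPM and the adaptor gene Pik3r6 from 24.0 ± 8.86 to 10.9 ± 0.9503 CPM (edgeR adjusted p = 1.5e-06 and 7.9e-04), while the adaptor gene Pik3r5 did not pass.

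Receptor kinases and arrestins, which uncouple active receptors from G proteins, were lower in 4 and higher in 1 of 6 tested genes. Arrb1, which encodes beta-arrestin 1, fell from 253 ± 17.6 to 64.3 ± 2.99 CPM (log2 fold change -1.98 ± 0.13, edgeR adjusted p = 1.5e-08). The kinase genes Grk2 and Grk6 fell by 0.65 and 0.77 on the log2 scale, and Grk5 rose from 7.92 ± 2.67 to 19.0 ± 0.227 CPM (1.26 ± 0.23, edgeR adjusted p = 3.0e-04).

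Genes that make and destroy cyclic AMP went both ways, and those called among its effectors were lower. Of 5 tested adenylyl cyclases 3 were higher and 1 lower. Of the higher ones, Adcy3 (9 and 19 counts against 157 and 170) and Adcy5 (4 and 6 against 24 and 13) reached the test only through the mimic group. Their direction was thus tied to the filter, and the count of higher genes does not describe cyclases in general. Adcy3 rose from 0.987 ± 0.514 to 8.72 ± 0.784 CPM (log2 fold change 3.14 ± 0.35, edgeR adjusted p = 3.2e-06) and Adcy9 fell from 17.7 ± 2.67 to 10.2 ± 0.00456 CPM (-0.79 ± 0.20, edgeR adjusted p = 0.0032), the latter not called with library size alone (adjusted p = 0.073). The higher calls of Adcy2 and Adcy5 (edgeR adjusted p = 0.029 and 0.049), both low genes, were lost in 5 and 8 of the alternatives. Adcy7, a cyclase of blood cells, stood at 110.1 ± 6.49 and 130.2 ± 4.09 CPM and did not pass (edgeR adjusted p = 0.10). Among 5 tested cyclic AMP effectors, the regulatory subunit gene Prkar1b and the catalytic subunit gene Prkaca were lower (-2.75 ± 0.35 and -0.50 ± 0.12). The call of Prkaca was lost with library size alone (adjusted p = 0.35). Prkar1b was a low gene, at 5.96 ± 0.392 and 0.883 ± 0.218 CPM. The more abundant regulatory subunit genes Prkar1a (289 ± 13.6 and 302 ± 6.88 CPM) and Prkar2a (78.9 ± 1.85 and 70.5 ± 4.97 CPM) did not pass. Nor did the catalytic subunit gene Prkacb (126 ± 1.38 and 114 ± 1.14 CPM).

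Cyclic AMP phosphodiesterases, which end the signal, split evenly, 3 higher and 3 lower of 8 tested. Pde4d rose from 5.87 ± 0.549 to 21.7 ± 2.43 CPM and Pde8a from 38.1 ± 3.11 to 83.7 ± 2.52 CPM, while Pde4b fell from 55.8 ± 6.28 to 20.4 ± 2.91 CPM and Pde8b from 82.4 ± 1.73 to 39.8 ± 4.96 CPM (edgeR adjusted p = 2.7e-06, 5.5e-06, 2.9e-06 and 1.5e-05). Pde3b had 54 counts over both miR-204-3p mimic libraries and 0 in both controls. Members of a single family, Pde4b with Pde4d and Pde8a with Pde8b, thus moved in opposite directions, as Gnai2 and Gnai3 did. These pairs were drawn from genes already called. Pde4a was lower like Pde4b (log2 fold change -0.50 ± 0.15, edgeR adjusted p = 0.012), and Pde4c and Pde7a did not pass. Among all tested genes 31.1% were higher and 29.7% lower.

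**Figure D5:**
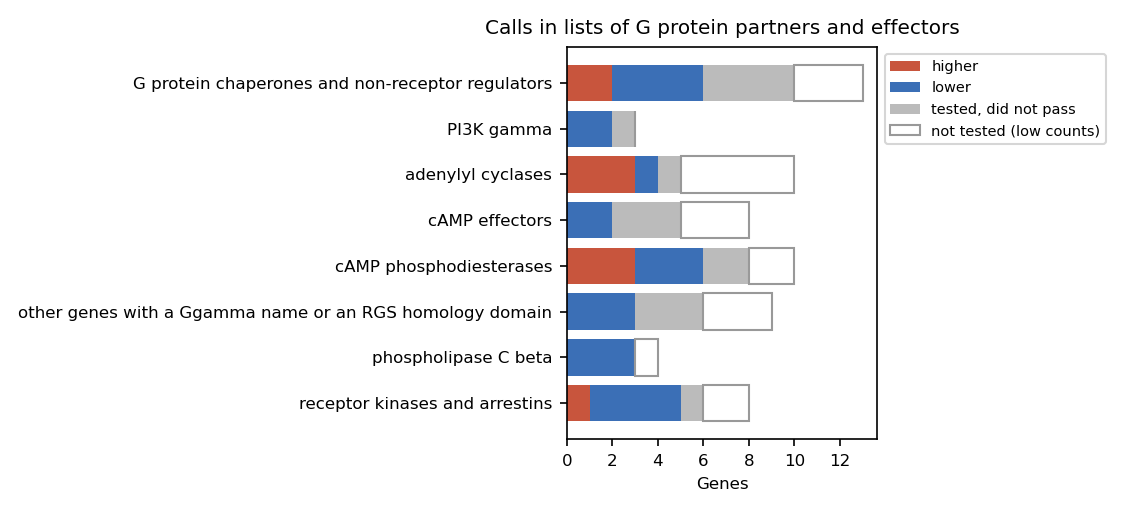
Number of genes higher, lower, tested without passing and not tested for low counts in lists of G protein partners and effectors. Phospholipase C beta, PI3-kinase gamma and cyclic AMP effectors show calls in the lower direction only. So does the list of other genes with a Gγ name or an RGS homology domain, and phosphodiesterases show 3 of each. Across all tested genes 31.1% were higher and 29.7% lower.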

How the data were processed

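RNA-seq gene counts of 4 libraries were used. The deposited values are whole-number raw counts for each gene, per the file headers, beside the exon length of its model. HISAT2 and mm10 stand in the submitters' processing notes. Which HISAT2 version, counter and strand setting were used is not given in the sources used here, so overlapping genes on opposite strands could share reads. Nothing in the labels ties the libraries of a group to different mice or cultures, and the p-values therefore reflect the spread between these libraries, which may be technical.

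Counts were tested in R 4.3.3 with edgeR 4.0.16 (glmQLFit and glmQLFTest, two-sided, TMM factors, filterByExpr by group, Benjamini-Hochberg adjustment over 13186 genes, threshold 0.05). TMM factors were 0.878 and 0.886 for the control and 1.14 and 1.13 for the mimic libraries. CPM are counts per 1000000 counts of tested genes after TMM scaling. Standard errors came from the F statistic. Total counts were 15899235 to 16837826. Replicate libraries differed by more than sampling noise (chi-square per degree of freedom 10.6 and 15.2). Alternatives were DESeq2 1.42.0, library size alone, DESeq2 size factors, no filter, an average log2 CPM of at least 1, gene-length offsets, a 1.5-fold minimum, each library left out, and a replicate block. The tests were first tested on simulated data. All 52 members matched GENCODE vM21 by identifier, 49 with the same coordinates.

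Members and lists were chosen with earlier results of these data known. Library values are given for called members changed at least 2-fold, for Gnb4 and for the highest gene per length of each class. From each effector list, up to 3 called genes per direction with the lowest p were eligible, and some are left out for length. Other genes given with values, such as uncalled members, Adcy7 and Ric8a, were named after their values were seen. Results of 1 effector list and of 1 marker gene are not reported here.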

Additional observations from a re-analysis of the deposited data

How the results depend on the processing

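The number of called members stayed between 16 and 20 in the fits without a fold minimum (18 as reported), and was 12 with a 1.5-fold minimum, which 4470 of all genes passed against 8022. Higher members numbered 10 rather than 6 with library size alone. Over 326 member values under alternatives, 294 kept direction and side of the threshold, 12 lost and 12 gained a call, and 8 changed sign. The sign changes were all of uncalled genes. With library size alone they were Gna13 (0.24), Gnaq (0.13), Gnat2 (0.041), Gnb2 (0.27) and Rgs19 (0.32), and with gene-length offsets Rgs19 (0.053). With 1 library left out, Gnat2 ranged from -0.78 to 0.31 and Rgs19 from -0.25 to 0.16, both positive without control replicate 2. Gene-length offsets called Gna13 (-0.33) and Gnaq (-0.43) lower. Of 347 values of eligible effector and partner genes, 314 were unchanged in call and direction and 33 lost a call.

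Same-numbered libraries did not deviate together (r = 0.024 across genes between the replicate differences of the groups), and the labels give no pairing. With a replicate block 19 members and 8070 genes were called. With 2 libraries a group, an exact permutation test of 1 gene cannot go below p = 0.333, so tests rest on the spread shared across genes. Genes under about 1 CPM were limited by depth. The cause of these dependences was not tested.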

Other observations

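Some genes near this family lie outside the symbol rule. Gngt2, which encodes a Gγ subunit first known from cone photoreceptors, fell from 59.4 ± 6.40 to 12.1 ± 1.89 CPM (log2 fold change -2.30 ± 0.17, edgeR adjusted p = 5.0e-08), and its partner in name Gngt1 had no counts. Among genes with an RGS homology domain, the sorting nexin genes Snx25 and Snx14 fell by 1.25 and 0.70 on the log2 scale (edgeR adjusted p = 3.5e-05 and 9.2e-04), the call of Snx14 being lost with library size alone (adjusted p = 0.061), while Axin1, Akap10 and Snx13 did not pass. This list had 3 lower and no higher genes of 6 tested, where 29.7% of all tested genes were lower and 31.1% higher.

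Chaperones and receptor-independent regulators of G proteins were lower in 4 and higher in 2 of 10 tested genes. Among all tested genes 60.8% were called, so this list was near that share. Gpsm3, a blood cell protein that binds Gαi-GDP, fell from 50.5 ± 1.70 to 24.3 ± 5.09 CPM (edgeR adjusted p = 8.0e-05). Rap1gap fell from 2.77 ± 0.101 to 0.616 ± 0.209 CPM (edgeR adjusted p = 7.7e-04). The higher genes were Ccdc88a (0.49, edgeR adjusted p = 0.040) and Ccdc88c (0.67, edgeR adjusted p = 0.019), whose log2 fold changes lost their calls with gene-length offsets (adjusted p = 0.40 and 0.18) and with some libraries left out (adjusted p up to 0.19 and 0.17). Ric8a and Ric8b, chaperones of newly made Gα, did not pass (edgeR adjusted p = 0.10 and 0.23). Pdcl, a co-chaperone of Gβγ assembly, was 84.0 ± 8.31 and 61.4 ± 9.12 CPM (edgeR adjusted p = 0.013), and its call was lost with library size alone (adjusted p = 0.60), without control replicate 1 (adjusted p = 0.091) and without mimic replicate 2 (adjusted p = 0.067).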
